A study of Mus musculus with 8 samples.

Results

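The genes described here are those of the p53 circuit: its inhibitors Mdm2 and Mdm4, its target genes Cdkn1a, Ccng1 and Zmat3, and the stress-response genes Gadd45a, Gadd45b and Gadd45g. The members were taken by name from the array's probe-gene table, as every probe set whose only gene symbol was 1 of 9 listed genes. The list also holds Trp53, which encodes p53. No probe set met the rule for it, so Trp53 is not analysed here. The other 8 genes had 18 probe sets among the 45101 on the array. Of these 18, 15 were bright enough to enter the tests.

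The samples were pools of 20 mouse embryos at the 2-cell stage, 4 labelled Brg1 mutant and 4 labelled wild type. BRG1 is the ATPase of BAF chromatin remodelling complexes, encoded by Smarca4, and the series title concerns maternal BRG1 and activation of the zygotic genome. The sources used here give neither the allele, nor how the mutation was made, nor the strain or age of the mothers. Each pool was called a biological replicate, which the labels do not tie to separate mothers, so p-values measure the spread between these pools. Each was read on 1 Affymetrix 3 prime array. All values are MAS5 signals, a linear brightness per probe set in which every array has the same trimmed mean. Signals of different probe sets are not comparable as levels. Precision is limited by the 8 arrays.

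p53 is a transcription factor that is kept low by MDM2, a ubiquitin ligase that marks it for degradation, and by MDM4, a related protein that blocks its activity. When DNA is damaged, p53 is released and switches on genes that halt the cell cycle, repair DNA or start apoptosis. Among them is Mdm2 itself, which closes a feedback loop. The GADD45 proteins are small stress-induced proteins that act through the kinase MTK1 and through PCNA. Only Gadd45a is a classical p53 target, while Gadd45b and Gadd45g also answer to cytokine and other stress signals.

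The 4 mutant pools were not alike, and this bears on most values below. Mutant replicates 3 and 4 correlated with wild type arrays at 0.747 to 0.758 across tested probe sets, while replicates 1 and 2 did so at 0.828 to 0.890 and wild type arrays with one another at 0.916 to 0.969. Summed over 16 markers of granulosa and cumulus cells, the somatic cells around the oocyte, signal was 20836 to 26113 in mutant replicates 3 and 4 and 1442.5 to 1988.3 in replicates 1 and 2, against 1426.7 to 2059.1 in wild type. In replicates 3 and 4, 10 of the 16 markers exceeded every wild type sample, 4 of them over 10-fold, and 2 markers, Amh and Ptx3, lay on both arrays under the background bound, the upper end of control probe sets for bacterial transcripts. The 13 markers of 2-cell embryos and oocytes summed to 41667 to 47416 in mutant replicates 1 and 2, above every wild type sample, and 19576 to 20568 in replicates 3 and 4, below every wild type sample, against 20616 to 29332 in wild type. The markers did not move as 1 set. In replicates 1 and 2, 9 of the 13 exceeded every wild type sample. In replicates 3 and 4, 4 of the 13 did so (Nlrp5, Gdf9, Zar1 and Mos), despite the lower sum. Mos, which is also among the 9, lay under the background bound on all 4 wild type arrays and in mutant replicates 1 and 4. Eif1ax lay below every wild type sample in all 4 mutant samples. Spike-in control signal was 4.81 and 3.37 times the wild type mean in mutant replicates 1 and 2, and 1.24 and 0.713 times in replicates 3 and 4. Of the 2 Smarca4 probe sets, 1426804_at read 387.5, 200.9, 273 and 291.3 in mutants, against 796, 632.1, 612.1 and 660.6 in wild type (log2 change -1.26, limma adjusted p = 0.0211). The other, 1426805_at, averaged 277 in mutants and 253 in wild type (log2 change 0.04, limma adjusted p = 0.963). Whether a probe set lies within a deleted stretch is unknown here, so neither is a firm check of the labels.

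Gadd45g and 1 of the 2 tested Gadd45b probe sets were called higher in Brg1 mutant embryos when all 8 samples were compared. No member was called lower. Thus 2 of the 15 tested probe sets were called higher, where 2.98% of all 22518 tested probe sets were, and 0 were called lower, where 3.58% were. Of these 2, Gadd45g was bright enough to be tested only through its mutant samples, which favours a higher call. The calls are limma tests adjusted by the Benjamini-Hochberg method over all tested probe sets at a threshold of 0.05. At an unadjusted p under 0.05, in either direction, the count was 9 of 15, against 25.5% of all tested. Among these, Mdm4 1419558_at and 1458223_at had negative estimates (log2 change -1.18 and -1.07) and the rest positive ones. The ratio of 3 prime to 5 prime control signal, a sign of RNA quality, also differed between the groups, at 4.88 to 15.05 in mutants and 16.3 to 21.1 in wild type for actin and 6.63 to 7.33 in mutants and 8.58 to 10.1 in wild type for Gapdh. Every mutant sample was below every wild type sample on both, and the part of this in the calls was not tested. Among all tested, 671 were called higher and 807 lower, a split that became 421 and 1557 with each array centred on its median. The median log2 change was 0.65 over the 15 member probe sets and -0.05 over all tested. It was 0.62 and 0.05 with mutant replicates 1 and 2 alone, and 0.30 and -0.20 with replicates 3 and 4 alone. With arrays weighted by their spread it was 0.14 and -0.14. Every mutant sample lay above every wild type sample for 3 of the 15, 1 each of Gadd45b, Gadd45g and Cdkn1a, where 7.83% of all tested did. Every mutant sample lay below every wild type sample for 0 of the 15, where 9.67% of all tested did.

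**Figure D1:**
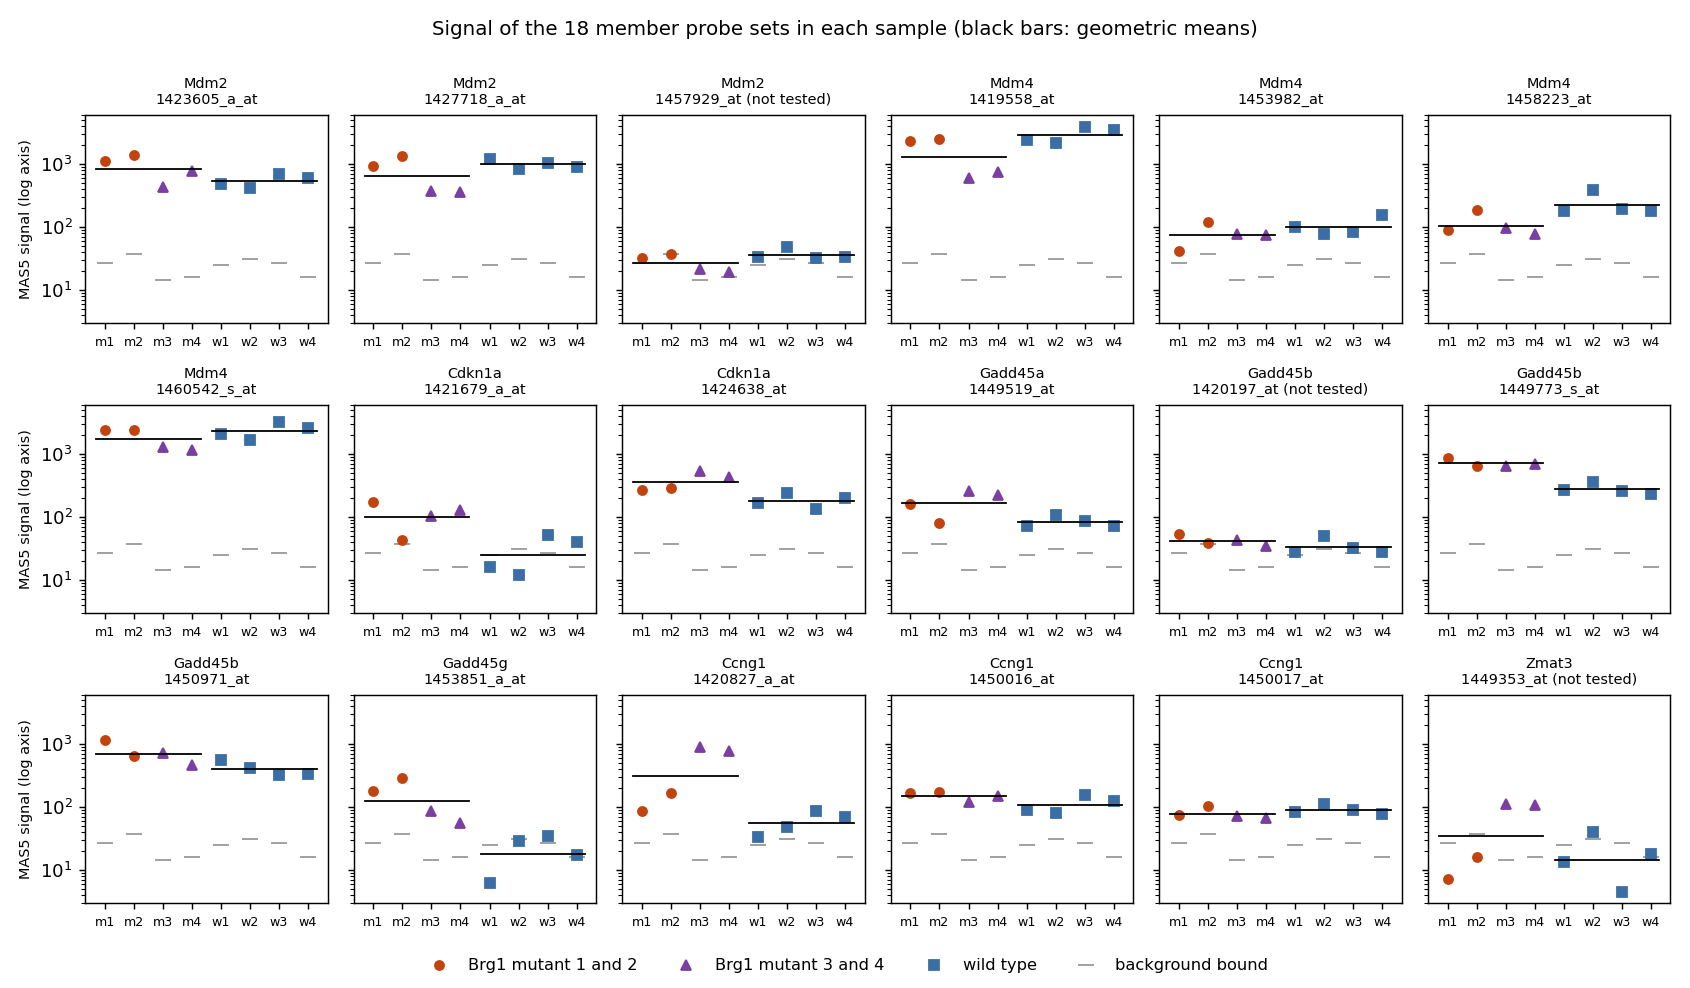
MAS5 signal (log axis) of all 18 member probe sets in Brg1 mutant (m1 to m4) and wild type (w1 to w4) samples, with geometric means as black bars and each array's background bound as a grey tick. Gadd45b 1449773_s_at, Gadd45g and Cdkn1a 1424638_at separate the groups, while Ccng1 1420827_a_at, Zmat3 and Mdm4 1419558_at separate mutant 3 and 4 from the other 6 samples.

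The result differed between the pairs of mutant samples, each set against the same 4 wild type samples. With mutant replicates 1 and 2 alone, 3 of the 15 probe sets were called higher, of Mdm2, Gadd45b and Gadd45g, and 0 lower, where 3.6% and 3.11% of all tested were. With mutant replicates 3 and 4 alone, 6 were called higher and 4 lower, where 18.3% and 23.2% of all tested were. The 6 comprised both Cdkn1a probe sets and 1 each of Gadd45a, Gadd45b, Gadd45g and Ccng1, and the 4 were 1 of Mdm2 and 3 of Mdm4. The Gadd45b and Gadd45g calls thus stood in both. With array weights, which give each array a weight by its spread, 7 of the 15 were called higher, the 6 called with replicates 3 and 4 and Gadd45b 1450971_at, and the same 4 lower. Far more of all tested probe sets were also called with array weights than with equal weights, with the counts given in the last section. These comparisons share their wild type samples, and the difference between the pairs was not tested. In pooled embryos, fewer cells of a type and less RNA per cell cannot be told apart.

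**Figure D2:**
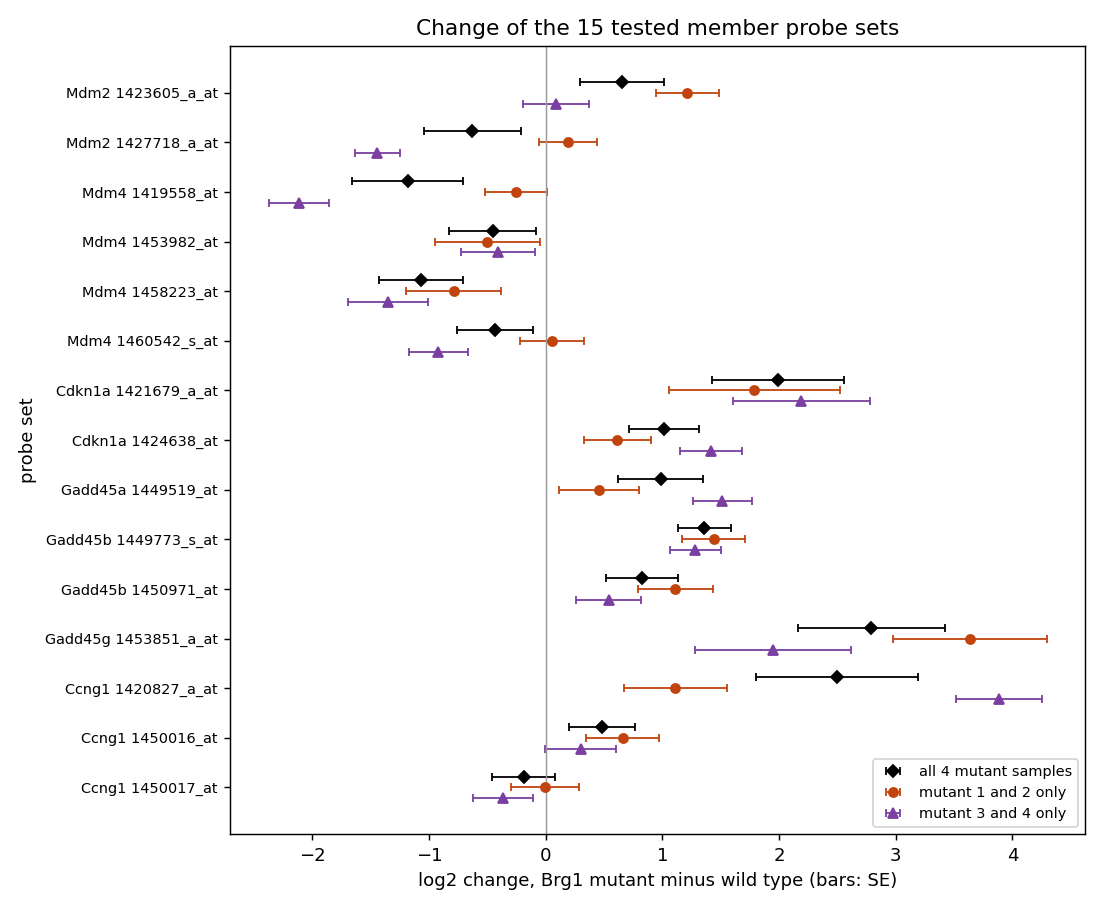
Log2 change from wild type of the 15 tested probe sets, with bars of 1 SE, for all 4 mutant samples (diamonds), mutant 1 and 2 (circles) and mutant 3 and 4 (triangles). Gadd45b 1449773_s_at has nearly the same change in both pairs (1.44 and 1.28), whereas Ccng1 1420827_a_at (1.11 and 3.88) and Mdm4 1419558_at (-0.25 and -2.11) do not.

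Mdm2, the p53 ubiquitin ligase, gave different answers on its 2 tested probe sets. Probe set 1423605_a_at read 1098.8, 1396.3, 424.3 and 755.3 in mutants, against 478.5, 415.5, 678.7 and 599.3 in wild type. Replicates 1 and 2 were above every wild type sample, replicate 4 was just above and replicate 3 among the lowest. Over all samples it did not pass (log2 change 0.65, SE 0.36, limma adjusted p = 0.289), whereas with mutant replicates 1 and 2 alone Mdm2 rose 2.32-fold (log2 change 1.22, limma adjusted p = 0.0296). Those are the samples with high spike-in and 2-cell marker signal, whose part in this result was not tested. Mdm2 probe set 1427718_a_at read 932.4, 1330.7, 365.5 and 353 in mutants, against 1179.3, 839.1, 1026.5 and 895.6 in wild type. Replicates 1 and 2 fell within or above the wild type range and replicates 3 and 4 below it. It did not pass over all samples (log2 change -0.63, SE 0.42, limma adjusted p = 0.383), and with replicates 3 and 4 alone it was 2.72-fold lower (limma adjusted p = 0.000464). The 2 probe sets correlated at r = 0.35 over the 8 samples, on log2 signals that share arrays. The remaining 1457929_at was too dim to be tested and read 19.7 to 37.5 in mutants and 32.5 to 48.5 in wild type.

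Mdm4, the other p53 inhibitor, had 4 tested probe sets, and 0 of them passed over all samples. The estimated log2 changes of all 4 were negative, from -1.18 to -0.43. Probe set 1419558_at read 2329.3, 2485.7, 596.2 and 734.5 in mutants, against 2383.3, 2127.9, 3841.4 and 3448.9 in wild type. Replicates 3 and 4 lay below every other sample, while replicates 1 and 2 lay within the wild type range (over all samples log2 change -1.18, SE 0.48, limma adjusted p = 0.152). With replicates 3 and 4 alone Mdm4 fell 4.33-fold on this probe set (log2 change -2.11, limma adjusted p = 0.000261), and with replicates 1 and 2 alone the log2 change was -0.25 (limma adjusted p = 0.590). Probe set 1460542_s_at followed the same course (r = 0.93 with the first over the 8 samples, which share arrays), at 2423.3, 2345, 1267.8 and 1160.9 in mutants, against 2022.7, 1643, 3213.8 and 2594.2 in wild type. It was 1.89-fold lower with replicates 3 and 4 alone (limma adjusted p = 0.0173). The dimmer 1458223_at read 88.8, 182.3, 97 and 76.5 in mutants, against 178.4, 386.7, 191.6 and 176.2 in wild type, so that 3 mutant samples were below the wild type range and replicate 2 inside it. It did not pass over all samples (log2 change -1.07, limma adjusted p = 0.0982) but did so without mutant replicate 2 (log2 change -1.34, limma adjusted p = 0.0313), with replicates 3 and 4 alone (log2 change -1.35, limma adjusted p = 0.0117) and with each array centred on its median (log2 change -1.25, limma adjusted p = 0.0421). The 4th, 1453982_at, read 41.5 to 121.9 in mutants and 77.7 to 156.3 in wild type and passed in neither pair.

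Cdkn1a encodes p21, the inhibitor of cyclin-dependent kinases through which p53 halts the cell cycle. Its probe set 1424638_at read 264, 288.7, 542.1 and 427.2 in mutants, against 168.8, 236.3, 133.1 and 198.3 in wild type. All 4 mutant samples were above all 4 wild type samples, and replicates 3 and 4 were the highest. The estimated change of 2.02-fold did not pass (log2 change 1.02, SE 0.30, limma adjusted p = 0.0670). It passed without mutant replicate 1 or 2 (log2 change 1.17 and 1.13, limma adjusted p = 0.0394 and 0.0442) and with replicates 3 and 4 alone (2.67-fold, limma adjusted p = 0.00253), but not with replicates 1 and 2 alone (1.53-fold, limma adjusted p = 0.213). Cdkn1a probe set 1421679_a_at read 173.8, 43.5, 103.2 and 127.4 in mutants, against 16.1, 11.9, 51.5 and 40.5 in wild type. Mutant replicate 2 alone overlapped the wild type range, and wild type replicates 1 and 2 were under the background bound. The probe set was bright enough to be tested only through its mutant samples (mean log2 signal 4.65 in wild type and 6.64 in mutants, lowest tested 5.25). It did not pass either (log2 change 1.99, SE 0.57, limma adjusted p = 0.0604) except without mutant replicate 2 (log2 change 2.39, limma adjusted p = 0.0246), with replicates 3 and 4 alone (4.56-fold, limma adjusted p = 0.0153) or with array weights (log2 change 1.74, limma adjusted p = 0.00367).

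Ccng1, the p53 target gene for cyclin G1, was measured by 3 probe sets that did not move alike. Probe set 1420827_a_at read 86.4, 168.2, 889.6 and 762 in mutants, against 33.1, 48.6, 87.6 and 68.6 in wild type. Replicates 3 and 4 stood far above the rest, replicate 2 moderately above and replicate 1 inside the wild type range. Over all samples it did not pass (log2 change 2.50, SE 0.70, limma adjusted p = 0.0570). It passed without mutant replicate 1 or 2 (log2 change 3.12 and 2.80, limma adjusted p = 0.0155 and 0.0393), and when the tests were confined to the upper 30% of probe sets by signal. Ccng1 rose 14.8-fold on it with replicates 3 and 4 alone (limma adjusted p = 7.69e-05), against 2.16-fold with replicates 1 and 2 alone, which did not pass (limma adjusted p = 0.152). The other Ccng1 probe sets, 1450016_at and 1450017_at, ran from 66.9 to 175.7 in mutants and from 77 to 153.6 in wild type, and passed in neither pair. They correlated with 1420827_a_at at r = 0.40 and -0.52 over the 8 samples, which share arrays.

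Zmat3, a p53 target gene that encodes an RNA-binding zinc finger protein, was too dim over the 8 samples to be tested. Its single probe set, 1449353_at, read 7.4, 16.1, 112.3 and 108.4 in mutants, against 13.5, 41.1, 4.6 and 17.9 in wild type. Replicates 3 and 4 were the only samples clearly above the wild type range. Replicates 1 and 2 lay under the background bound, as did wild type replicates 1 and 3. The granulosa marker sum was high in the same samples 3 and 4 that were high for Ccng1 1420827_a_at and Zmat3 and low for Mdm4 1419558_at and 1460542_s_at. Its part in these results was not tested.

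**Figure D3:**
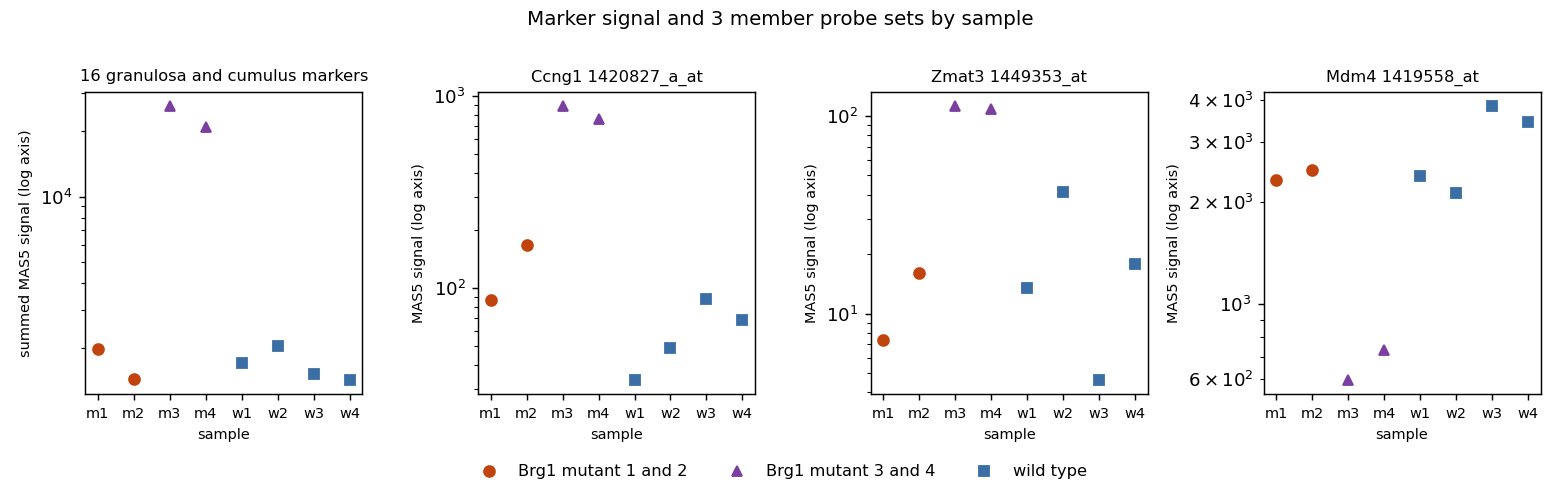
Summed signal of 16 granulosa and cumulus markers and the signals of Ccng1, Zmat3 and Mdm4 probe sets (log axes) in mutant samples m1 to m4 and wild type samples w1 to w4. Mutant 3 and 4 are the highest samples for the markers (20836 and above), Ccng1 and Zmat3 and the lowest for Mdm4.

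Of the GADD45 genes, 1 Gadd45b probe set and the Gadd45g probe set were called higher in each pair of mutant samples. Gadd45b probe set 1449773_s_at read 856.1, 646.3, 638.5 and 698.5 in mutants, against 266.2, 357, 254.6 and 233.9 in wild type. The groups were far apart, and the mutant samples were close to one another. Gadd45b averaged 710 ± 101 in mutants and 278 ± 54.4 in wild type (SD, n = 4 each), 2.57-fold higher (log2 change 1.36, SE 0.23, limma adjusted p = 0.0141). It ranked 171 of 22518 tested probe sets by p, the first of the 15 members. The change was 2.71-fold with mutant replicates 1 and 2 alone and 2.43-fold with replicates 3 and 4 alone (limma adjusted p = 0.0186 and 0.00169). A name ending in _s_at marks a probe set whose probes are shared by several sequences. Gadd45b probe set 1450971_at read 1143.8, 641.8, 714.3 and 464 in mutants, against 551.1, 421, 321.5 and 330.1 in wild type. Only mutant replicate 4 lay within the wild type range, and the change did not pass (log2 change 0.83, SE 0.31, limma adjusted p = 0.129). Nor did this probe set pass with either pair alone (log2 change 1.11 with replicates 1 and 2 and 0.54 with replicates 3 and 4, limma adjusted p = 0.0671 and 0.147). The remaining 1420197_at was too dim to be tested and overlapped, at 34.6 to 53.2 in mutants and 28 to 50.1 in wild type.

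Gadd45g had 1 probe set, 1453851_a_at, which read 179.4, 284.9, 86.7 and 57 in mutants, against 6.2, 28.7, 35.2 and 17.5 in wild type. Every mutant sample was above every wild type sample, and replicates 1 and 2 were above replicates 3 and 4, the reverse of the order seen for Ccng1 1420827_a_at and Zmat3. Gadd45g rose 6.93-fold (log2 change 2.79, SE 0.63, limma adjusted p = 0.0313), with means of 152 ± 103 in mutants and 21.9 ± 12.8 in wild type (SD, n = 4 each). Wild type replicates 1 and 2 were under the background bound, so the fold is uncertain. The mean log2 signal was 4.19 in wild type and 6.98 in mutants, where the lowest mean tested was 5.25. Gadd45g thus entered the tests only through the group in which it was high. With no filter for brightness its limma adjusted p was 0.0468. The rise was 12.4-fold with mutant replicates 1 and 2 alone and 3.86-fold with replicates 3 and 4 alone (limma adjusted p = 0.0176 and 0.0420). Spike-in and 2-cell marker signal were also higher in replicates 1 and 2, and their part was not tested. Both calls rested on few arrays. Gadd45b 1449773_s_at missed the threshold without wild type replicate 1, 3 or 4 (log2 change 1.35, 1.33 and 1.29, limma adjusted p = 0.0585, 0.0540 and 0.0579). Gadd45g missed it without wild type replicate 1, 2, 3 or 4 (log2 change 2.27, 3.01, 3.11 and 2.77, limma adjusted p = 0.0861, 0.0607, 0.0603 and 0.0860) and without mutant replicate 3 (log2 change 2.97, limma adjusted p = 0.0595).

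Gadd45a, the GADD45 gene best known as a p53 target, did not pass over all samples. Its probe set 1449519_at read 159.8, 81.1, 255 and 220.7 in mutants, against 72.8, 106.6, 86.1 and 71.1 in wild type. Mutant replicate 2 lay inside the wild type range and the other 3 above it (log2 change 0.99, SE 0.37, limma adjusted p = 0.126). Gadd45a passed without mutant replicate 2 (log2 change 1.32, limma adjusted p = 0.0215) and rose 2.86-fold with replicates 3 and 4 alone (limma adjusted p = 0.00142), which carried the granulosa marker signal, against 1.37-fold with replicates 1 and 2 alone (limma adjusted p = 0.437).

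The promoters of the 3 GADD45 genes are shown because these genes form 1 family with 2 called members, and that of Cdkn1a because p53 acts there in textbook accounts. Each runs from 250 bases before to 50 bases after a RefSeq start site on GRCm38.p6, 5′ to 3′ in the direction of the gene. Capitals mark matches, on either strand, to the TATA box letters TATAAA, to the CCAAT box letters CCAAT or to the p53 half-site consensus. The Gadd45a stretch lies at chr6:67037358-67037657 on the minus strand, Gadd45b at chr10:80929841-80930140, Gadd45g at chr13:51846425-51846724 and the upstream of 2 Cdkn1a start sites at chr17:29090729-29091028, all 3 on the plus strand.
Gadd45a: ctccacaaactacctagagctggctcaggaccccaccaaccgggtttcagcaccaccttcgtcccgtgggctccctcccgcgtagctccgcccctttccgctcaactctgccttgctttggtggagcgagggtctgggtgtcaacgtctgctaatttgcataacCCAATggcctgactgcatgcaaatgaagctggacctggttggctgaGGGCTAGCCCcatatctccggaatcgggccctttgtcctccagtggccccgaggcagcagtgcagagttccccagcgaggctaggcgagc
Gadd45b: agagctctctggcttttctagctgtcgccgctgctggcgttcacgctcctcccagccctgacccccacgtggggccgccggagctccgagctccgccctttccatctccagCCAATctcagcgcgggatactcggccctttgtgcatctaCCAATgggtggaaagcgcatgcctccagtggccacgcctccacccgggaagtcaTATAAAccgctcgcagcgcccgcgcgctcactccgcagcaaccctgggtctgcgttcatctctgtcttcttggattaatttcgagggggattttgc
Gadd45g: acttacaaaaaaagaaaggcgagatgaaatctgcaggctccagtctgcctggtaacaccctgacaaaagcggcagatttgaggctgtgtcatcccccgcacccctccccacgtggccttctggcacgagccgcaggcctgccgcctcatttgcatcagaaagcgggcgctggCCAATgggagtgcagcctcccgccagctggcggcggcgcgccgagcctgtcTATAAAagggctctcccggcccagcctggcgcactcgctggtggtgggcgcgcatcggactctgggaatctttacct
Cdkn1a: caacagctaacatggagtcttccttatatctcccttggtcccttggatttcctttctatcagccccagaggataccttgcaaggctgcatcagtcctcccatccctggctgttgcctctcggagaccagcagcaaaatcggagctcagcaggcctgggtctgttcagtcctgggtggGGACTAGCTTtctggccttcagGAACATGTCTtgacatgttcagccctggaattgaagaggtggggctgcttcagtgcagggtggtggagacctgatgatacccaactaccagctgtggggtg

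Gadd45b and Gadd45g each held 1 TATAAA, which began 46 and 27 bases before the start site, and 2 and 1 CCAAT motifs. Neither held a p53 half-site match in this window. Gadd45a held 1 half-site match and 1 CCAAT but no TATAAA, and the upstream Cdkn1a promoter held 2 half-site matches. The other Cdkn1a promoter, at chr17:29093519-29093818 and not printed here, held 0. Of all 32851 promoters of the same length, 13.6% held TATAAA, 37.4% CCAAT and 8.36% the half-site consensus. The Mdm2 and Ccng1 promoters, not printed here, held 1 half-site match each, and the 2 Mdm4 promoters held 0. No motif overlapped another in the 4 promoters shown. A match is a string of letters and not a measured binding site.

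Profiles over the 8 samples most like that of Gadd45b 1449773_s_at belonged to Rnf213 (Pearson r = 0.98), Snhg1 (r = 0.979) and Slc25a31 (r = 0.974). Snhg1, a host gene of small nucleolar RNAs, read 225.7 to 337.8 in mutants and 44 to 95.8 in wild type and rose (log2 change 2.03, limma adjusted p = 0.00976). Slc25a31, a mitochondrial ADP/ATP carrier of the germ line, also rose, at 597 to 721.8 in mutants and 185.9 to 298.5 in wild type. Rnf213 did not pass (log2 change 0.67, limma adjusted p = 0.0672). Closest to Gadd45g were Shoc2 (r = 0.986), a RAS pathway scaffold that rose (log2 change 0.99, limma adjusted p = 0.0481), Pigu (r = 0.981) and Rif1 (r = 0.979), a regulator of replication timing and DNA break repair. Rif1 read 1833.5, 1918.2, 1226.9 and 1078.6 in mutants, against 568.2, 999.2, 842.6 and 698.2 in wild type, and did not pass (log2 change 0.95, limma adjusted p = 0.0660). These correlations are on log2 signals, were picked as the highest among all tested probe sets, and share arrays and group differences.

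Other genes around p53 were mostly uncalled, and those called among its regulators were lower in the mutants. Genes were counted by their brightest tested probe set, of which 3.01% were higher and 4.03% lower among 11934 genes. Of 21 tested p53 family members and regulators, 3 fell, 0 rose and 18 did not pass, with a median log2 change of -0.30 against -0.05 over all genes. Chek2, a checkpoint kinase that phosphorylates p53, read 307.2, 207.5, 139.2 and 166.4 in mutants, against 598.5, 566.8, 361 and 423.1 in wild type, with no overlap (2.43-fold lower, limma adjusted p = 0.0339). Ppm1d, the phosphatase WIP1 that reverses such phosphorylation, fell 2.55-fold (limma adjusted p = 0.0367). Trim24, a ubiquitin ligase of p53, fell 2.66-fold (limma adjusted p = 0.0216). Ppm1d and Trim24 each had 1 other tested probe set, which had the same sign and did not pass. Prkdc, the catalytic subunit of DNA-dependent protein kinase, missed the threshold at a log2 change of -0.92 (limma adjusted p = 0.0720).

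Of 24 other p53 target genes, 2 rose, 1 fell and 21 did not pass (median log2 change -0.04). Sesn2, a stress-induced regulator of TORC1, read 889.2, 510, 358.5 and 358.8 in mutants, against 2413.6, 2160, 1342.1 and 1691.1 in wild type (3.77-fold lower, limma adjusted p = 0.0157). Its other tested probe set had the same sign and did not pass. Apaf1, the core of the apoptosome, rose 1.96-fold (limma adjusted p = 0.0432), though its other tested probe set had the opposite sign and did not pass. Xpc, which recognises DNA lesions for excision repair, rose 2.16-fold (limma adjusted p = 0.0476). Both of these calls ended with quantile normalization and with either centring of the arrays. Gtse1 missed the threshold at a log2 change of -1.51 (limma adjusted p = 0.0952). Its mutant replicates 2 and 4 were under the background bound, and replicate 3 lay within the wild type range.

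Of 20 genes for CDK inhibitors, cyclins and CDKs, which p21 acts among, 1 fell, 0 rose and 19 did not pass (median log2 change -0.46). Cdkn2d, an inhibitor of CDK4 and CDK6, read 119, 126.4, 70.7 and 71.8 in mutants, against 229.5, 261.7, 220.8 and 227.4 in wild type (2.51-fold lower, limma adjusted p = 0.0236). Cdk2, Cdkn2c and Cdk1 missed the threshold at log2 changes of -0.96, -1.18 and -1.12 (limma adjusted p = 0.0524, 0.0778 and 0.0808). Of 9 partners and effectors of the GADD45 proteins, 0 passed (median log2 change -0.41). Mapk14, the p38 kinase downstream of GADD45 and MTK1, had a log2 change of -0.91 (limma adjusted p = 0.0594), and 1 of its 2 other tested probe sets passed with the same sign. Mapk9, Map2k3 and Map2k4 had log2 changes of -0.76, -0.65 and -0.48 (limma adjusted p = 0.0657, 0.166 and 0.271).

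**Figure D4:**
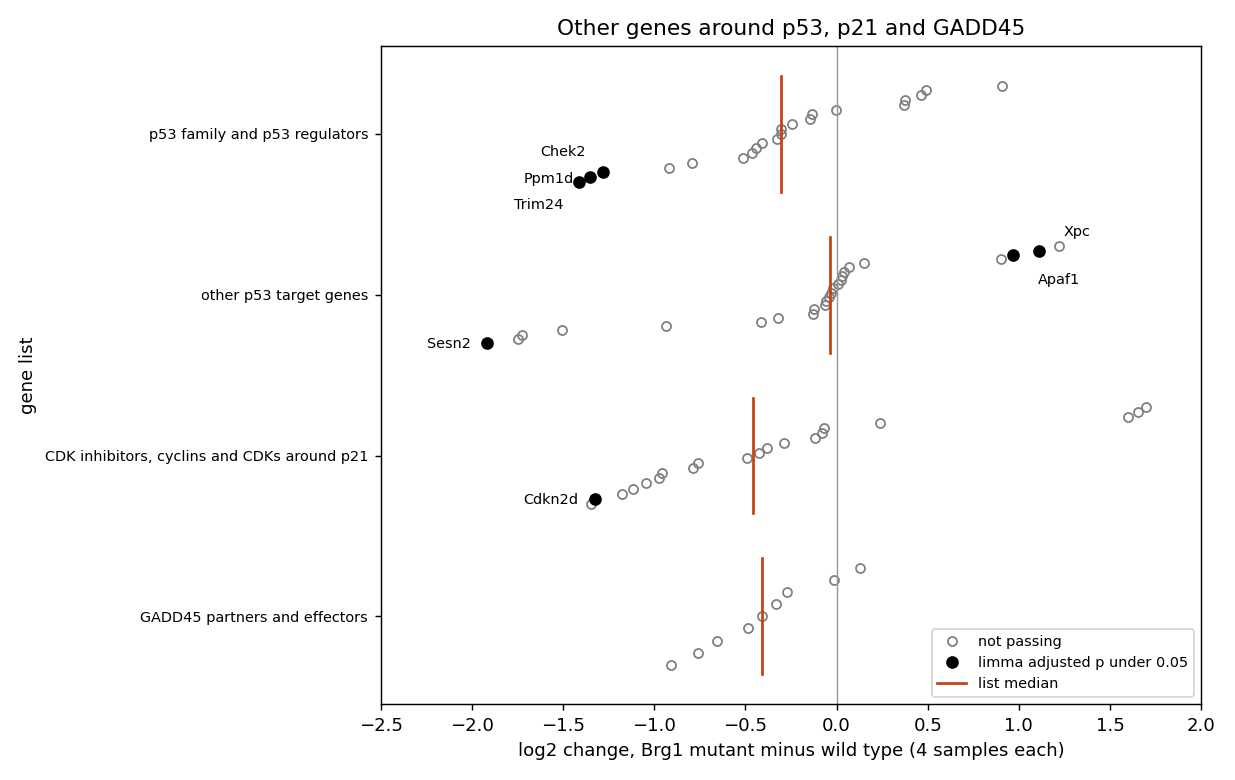
Log2 change, Brg1 mutant minus wild type, of every tested gene on 4 lists, with genes past a limma adjusted p of 0.05 filled and named and list medians as vertical lines. Called regulators (Chek2, Ppm1d, Trim24) and Cdkn2d are lower, and called targets lie on both sides.

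These counts too depended on the samples. None of the 7 called genes changed direction when any 1 sample was dropped, but 0, 2, 1 and 0 of them kept the call without wild type replicates 1, 2, 3 and 4, and 7, 7, 1 and 1 without mutant replicates 1, 2, 3 and 4. With mutant replicates 1 and 2 alone, 2 regulators, 1 target, 0 CDK genes and 0 GADD45 partners were called higher and 0, 2, 1 and 0 lower, where 3.86% and 3.58% of genes were. With mutant replicates 3 and 4 alone, 3, 3, 3 and 0 were called higher and 10, 7, 13 and 6 lower, where 19.2% and 24.4% of genes were. Granulosa marker signal was high in those 2 samples, and its part in these counts was not tested.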

How the data were processed

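The deposited values were array intensities on a linear scale, 1 MAS5 signal per probe set, per the submitters' processing notes. The sources used here name no version of MAS5. All 8 arrays already had a 2% trimmed mean of 150.001, so none was rescaled. No 2 arrays were identical.

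The log2 of each signal, with a floor of 1, was tested for the brighter 50% of the 45037 probe sets left without 64 controls, ranked by their mean over the 8 samples. This gave 22518 tests of mutant against wild type in limma 3.58.1 (R 4.3.3, two-sided, eBayes with trend), adjusted by Benjamini-Hochberg over all of them. SE is that of the fitted log2 change. Alternatives were other scalings, filters and pseudocounts, array weights, a replicate block and samples left out. As background bound of each array served the 95th percentile of its 27 Bacillus control probe sets. Spike-in control signal was the mean of 18 probe sets. The fit was tested on simulated data.

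Symbols came from the platform annotation. The genes named are all members, of each pathway list those that passed and otherwise up to 4 with the smallest adjusted p, and the 3 most similar profiles of each called member. The markers of oviduct, sperm and blood are given with the limits. Members, lists and tests were chosen with earlier results of these data known.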

Additional observations from a re-analysis of the deposited data

Results flagged for a closer look

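In 2 of 36 groups of 4 samples, 1 sample's gap to the rest exceeded Dixon's 95% critical value, which chance does in about 1 in 20 groups. Mdm2 1457929_at read 48.5 in wild type replicate 2, above 32.5 to 33.8 in the other wild type samples. Mdm4 1458223_at read 386.7 in wild type replicate 2, above 176.2 to 191.6 in the other wild type samples.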

How the results depend on the processing

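Over the member probe sets and alternatives run, 254 of 294 values kept their direction and their side of the threshold, 10 lost a call, 27 gained one and 3 changed sign. The count of members called higher, 2, became 7 with array weights, 0 with the replicate block, 1 without _x_at and _s_at probe sets, 6 without mutant replicates 1 and 2, and 0 to 6 with 1 sample left out. The count called lower, 0, became 1 with median centring, 4 with array weights, 4 without mutant replicates 1 and 2, and 0 to 1 with 1 sample left out. Over all tested probe sets, 671 higher and 807 lower became 421 and 1557 with median centring, 5099 and 6387 with array weights, 10 and 5 with the replicate block, and 4126 and 5232 without mutant replicates 1 and 2. With 1 sample left out they became 40 to 1411 higher and 33 to 1515 lower. The cause of these moves was not tested. The log2 change of Mdm2 1423605_a_at was -0.0493 with array weights. Without mutant replicates 3 and 4, that of Mdm2 1427718_a_at was 0.19 and that of Mdm4 1460542_s_at 0.0552. Smarca4 1426805_at had log2 changes of -0.0168 with quantile normalization, -0.14 with median centring, -0.11 with 75th percentile centring and -0.0044 with array weights, and of -0.23 to 0.31 with 1 sample left out. The median of all tested probe sets was -0.05, and -0.14, -0.22 and -0.19 with quantile normalization, median and 75th percentile centring.

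With the replicate block, limma adjusted p was 0.0680 for Gadd45b 1449773_s_at and 0.0774 for Gadd45g, and 0 of the 7 called pathway genes kept the call. Same-numbered samples deviated from their group means with correlations of 0.02, -0.18, -0.13 and -0.09, which gave no sign of pairing by number. Mutant deviations also hold the difference between the mutant pairs, so these values cannot exclude such pairing. With the background bound at the 90th percentile, as at the 95th, 0 members lay under it on every array of a group. Gadd45g was not among the upper 30% of probe sets and was not tested there. Other marker sums also moved with the mutant pairs. Oviduct markers summed to 1891.7 to 1972.6 in mutant replicates 3 and 4 and 1125.5 to 1353 in replicates 1 and 2, against 971.3 to 1050.8 in wild type. In replicates 3 and 4, 3 of the 7 oviduct markers exceeded every wild type sample, while Pax8 and Foxj1 lay below every wild type sample. Blood markers summed to 841.4 to 901.6 and 412 to 420.2 in the same mutant pairs, against 342.8 to 409.1 in wild type. In replicates 3 and 4, 4 of the 7 blood markers exceeded every wild type sample. Among them Cd52 read 360.4 and 453.1, against 19.7 to 48.2 in wild type. Sperm markers summed to 90.3 to 107.7 and 215.4 to 230, against 156.5 to 183.1 in wild type. MAS5 signals near the background bound limit the folds of Cdkn1a 1421679_a_at, Gadd45g and Zmat3, and the log2 change of Gtse1.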
